A study of Sus scrofa with 24 samples.

Results

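The miR-424, miR-503, miR-542 and miR-450 cluster is a group of 6 miRNA hairpins on the pig X chromosome, here followed in subcutaneous and intramuscular adipocytes as they differentiated. Its members were chosen by name, with results of these libraries already known: every entry of the deposited table named ssc-miR-424, ssc-miR-503, ssc-miR-450a, ssc-miR-450b, ssc-miR-450c or ssc-miR-542, whatever its arm. This gave 10 entries among 1587, of which 363 are known and 1224 newly predicted miRNAs. Small RNA was sequenced from preadipocytes of Yorkshire piglets of 6 days of age, without any genetic change. The subcutaneous cells came from back fat and are called BF, and the intramuscular cells came from the longissimus dorsi muscle and are called IMF. Cells were collected before induction (day 0) and on day 2, day 4 and day 8 of differentiation, giving the groups BF-0d to BF-8d and IMF-0d to IMF-8d with 3 libraries each. All groups after day 0 had received the same adipogenic cocktail of 3-isobutyl-1-methylxanthine, dexamethasone and insulin. The cells were primary cultures, and the sources do not link single libraries to single piglets, so the p-values measure the spread between these libraries, which may be technical.

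A miRNA precursor is a hairpin from which one strand of about 22 nt, the 5p or the 3p arm, is loaded into Argonaute, while the other arm is mostly degraded. The seed, bases 2 to 8 of the loaded arm, pairs with target mRNAs and lowers their output. Clustered hairpins are usually cut from one primary transcript, after which each mature strand has its own processing rate and half-life. In mammals miR-424 and miR-503 belong to the extended miR-15/16 family, which is known for repressing cyclins and other cell-cycle genes, and miR-542-3p is known for targeting survivin. After induction preadipocytes first re-enter the cell cycle, as the study states. They leave it as they differentiate further, which is why this family has been studied in fat cells.

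The mature sequences come first, because they decide which entries can be told apart. They are written 5′ to 3′ with the seed in capitals, in the order of the hairpins along the transcribed strand, and were taken from the study's list of miRNAs.
ssc-miR-424-5p: cAGCAGCAattcatgttttgaa
ssc-miR-424-3p: cAAAACGTgaggcgctgctat
ssc-miR-503: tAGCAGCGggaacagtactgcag
ssc-miR-542-5p: tCGGGGATcatcatgtcacga
ssc-miR-542-3p: tGTGACAGattgataactgaaa
ssc-miR-450c-5p: tTTTGCGAtgtgttcctaatac
ssc-miR-450c-3p: aTTGGGAAcattttgcattcgt
ssc-miR-450a: tTTTGCGAtgtgttcctaatat
ssc-miR-450b-5p: tTTTGCAAtatgttcctgaata
ssc-miR-450b-3p: tTGGGAACattttgcatccat

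ssc-miR-450a and ssc-miR-450c-5p have the same seed and differed at 1 of 22 positions, T22C, counted from 1 at the 5′ end of ssc-miR-450a. Their shared first 21 bases occur at 2 places in Sscrofa11.1, both in the cluster, so a read that lacks the last base fits either hairpin and the division of reads between these entries is uncertain. ssc-miR-450b-5p differed from ssc-miR-450a at 6 positions, and its seed differed by G7A. The seed of ssc-miR-424-5p is shared with ssc-miR-15a, ssc-miR-15b, ssc-miR-16, ssc-miR-195 and ssc-miR-497, while ssc-miR-503 ends its seed in a different base. Each of the 10 mature sequences has 1 exact copy in the genome.

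The hairpins span 6395 bp of chromosome X, at chrX:110381587-110387981 of Sscrofa11.1, and overlap no gene of RefSeq other than miRNA genes. The nearest such genes are HPRT1, which encodes the purine salvage enzyme hypoxanthine phosphoribosyltransferase, 23684 bp below the lower end, and PLAC1, a placenta-specific gene, 15275 bp above the upper end. The study's list gives the plus strand for all 6 hairpins, but their sequences match the minus strand of the genome, and RefSeq places the 4 that it annotates (MIR542, MIR450C, MIR450A and MIR450B) on the minus strand. Read along the minus strand, mir-424 comes first (chrX:110387902-110387981), 237 bp before mir-503 (chrX:110387556-110387664). A gap of 4879 bp separates mir-503 from mir-542 (chrX:110382597-110382676). mir-450c (chrX:110381891-110381971) follows after 625 bp, mir-450a (chrX:110381746-110381851) after a further 39 bp and mir-450b (chrX:110381587-110381666) after 79 bp.

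3 hairpins are shown with the listed arms in capitals: mir-424, whose arms had reads of the same order, and mir-450c and mir-450a, whose 5p arms are nearly identical although only mir-450c has a listed 3p arm.
mir-424: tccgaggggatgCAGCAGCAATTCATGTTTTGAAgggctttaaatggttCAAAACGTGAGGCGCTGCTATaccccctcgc
mir-450c: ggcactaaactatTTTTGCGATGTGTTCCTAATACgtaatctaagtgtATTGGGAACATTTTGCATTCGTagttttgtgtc
mir-450a: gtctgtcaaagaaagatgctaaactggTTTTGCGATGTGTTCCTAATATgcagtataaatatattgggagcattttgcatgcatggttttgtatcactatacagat

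Between 4954845 and 16863560 reads per library were counted on miRNAs, so that 1 read was worth 0.0593 to 0.202 TPM. TPM is the authors' name for reads per 1000000 reads counted on all listed miRNAs of a library. ssc-miR-21-5p, the most abundant entry, took 27.9% to 60.5% of the reads and went from 572485 TPM ± 26632 (SD, n = 3) in BF-0d to 355029 TPM ± 66398 (SD, n = 3) in BF-8d, and from 574375 TPM ± 39242 (SD, n = 3) in IMF-0d to 425302 TPM ± 28547 (SD, n = 3) in IMF-8d. As TPM are shares of one total, every other entry gains from such a fall, and changes between days are therefore also given as TPM without ssc-miR-21-5p and as ratios between members of one library. Of the 3 red blood cell markers, ssc-miR-144 was at 0 in 22 of 24 libraries and ssc-miR-451 in 3, while ssc-miR-486 was at 0 in none and reached 6.63 TPM. Of the leukocyte markers, ssc-miR-150 was at 0 in 23 libraries, ssc-miR-223 in 22 and ssc-miR-142-5p in 6, and ssc-miR-142-3p was found in all, at up to 2.33 TPM. Of the 5 skeletal muscle markers, ssc-miR-1 was at 450 to 2324 TPM, ssc-miR-133a-3p at 7.53 to 30.2 TPM and ssc-miR-499-5p at 8.57 to 23.2 TPM, whereas ssc-miR-133b stayed under 1 TPM and ssc-miR-206, which was at 0 in 13 libraries, reached 0.934 TPM. Less RNA per cell and fewer cells of a type cannot be told apart in these cultures.

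All 10 members passed the filter of a mean of at least 1 TPM, and they divided into abundant and rare strands. The cluster summed to 1342 to 5363 TPM per library, of which ssc-miR-450c-5p, ssc-miR-450b-5p and ssc-miR-542-3p held 89.7% to 92.6%. By their mean over the 24 libraries, ssc-miR-450c-5p ranked 32 among the known miRNAs, ssc-miR-450b-5p 42 and ssc-miR-542-3p 56. ssc-miR-450a ranked 90, ssc-miR-503 125, ssc-miR-424-5p 138 and ssc-miR-424-3p 189. The other 3, ssc-miR-542-5p, ssc-miR-450c-3p and ssc-miR-450b-3p, never passed 4.68 TPM and had from 1 to 51 reads per library. Each read counts as 1 molecule of 21 to 23 nt, so no length enters these levels, although small RNA libraries capture different end sequences unequally.

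**Figure D1:**
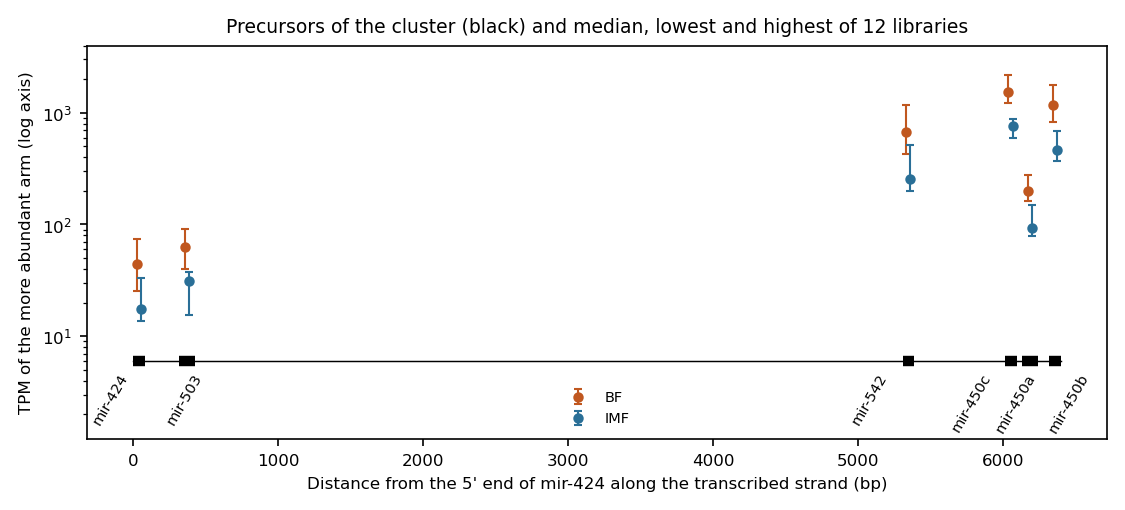
Level of the more abundant arm of each hairpin, in TPM on a log axis, against the distance in bp from the 5′ end of mir-424 along the transcribed strand. Points are the median and bars the lowest and highest of the 12 BF or 12 IMF libraries. The pair at the 5′ end lay below the 4 hairpins at the 3′ end, and the BF median was above the IMF median for all 6.

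Along the transcribed strand the levels did not follow the order of the hairpins. Over the 12 BF libraries, ssc-miR-424-5p had a median of 44.3 TPM (25.5 to 74.3) and ssc-miR-503 a median of 62.5 TPM (39.8 to 91.7). The medians were 667 TPM (424.3 to 1162) for ssc-miR-542-3p, 1530 TPM (1219 to 2175) for ssc-miR-450c-5p, 199.8 TPM (161 to 277) for ssc-miR-450a and 1170 TPM (835 to 1766) for ssc-miR-450b-5p. mir-450a, which lies between mir-450c and mir-450b, thus had the fewest reads of the 4 hairpins at the 3′ end, with the caution on shared reads given above.

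The first comparison asks whether the members differ between subcutaneous and intramuscular cells of the same day. The test was limma on log2(TPM + 1) of the 6 libraries with a Benjamini-Hochberg adjusted p under 0.05 over 430 entries and a fold change above 1.5. ssc-miR-450c-3p on day 8 turned from -0.10 to between 0.0479 and 0.0802 (log2 fold change) with median-of-ratios scaling, edgeR and DESeq2, and was called by none of them. ssc-miR-450c-3p and ssc-miR-450b-3p reached the filter of 1 TPM only through BF, as all their IMF group means were lower than 1 TPM, so they are left out of the counts. In TPM the group mean of the 8 other members was lower in IMF in all 32 comparisons of a member on a day, and 25 of these passed.

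On day 0, 7 of these 8 members were lower in IMF and 0 higher, where 15.8% of all entries tested were lower and 13.5% higher. With the replicate number as a block, whose pairing is not known, the day 0 count was 8, with ssc-miR-542-3p added (limma, adjusted p = 0.0294). That fit called 127 of all 430 entries. On day 2 the counts were 5 lower and 0 higher, against 6.51% and 5.81% of all entries. 7 members were lower and 0 higher on day 4, against 28.8% and 7.44%, and 6 were lower and 0 higher on day 8, against 25.1% and 12.1%. The median log2 fold change of the 8 members, IMF minus BF, was -1.004, -1.21, -1.65 and -0.79 on the 4 days in turn, while the median of all 430 entries was -0.13, -0.14, -0.34 and -0.28. With the libraries scaled by the median of ratios, which brings the median of all entries to between -0.03 and 0.00, the median of the 8 was -0.86, -1.07, -1.23 and -0.49, with 6, 7, 7 and 4 of the 8 lower and 0 higher.

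The day 2 count rests on few libraries: without BF-2d replicate 1, IMF-2d replicate 1 or IMF-2d replicate 3 it was 0, and without IMF-2d replicate 2 it was 1, while leaving out BF-2d replicate 3 gave 7. The calls over all entries moved as well, from 53 to 8, 2, 2 and 8 in the first 4 of these fits and to 85 in the last, and the log2 fold change of ssc-miR-450c-5p stayed between -1.56 and -1.16 over the 6 fits that left out one library. Over all entries the called differences were 68 lower and 58 higher in IMF on day 0, and with median-of-ratios scaling 38 and 63. On day 2 they were 28 and 25, and 24 and 36 when scaled. On day 4 they were 124 and 32, and 68 and 52 when scaled. On day 8 they were 108 and 52, and 64 and 83 when scaled.

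**Figure D2:**
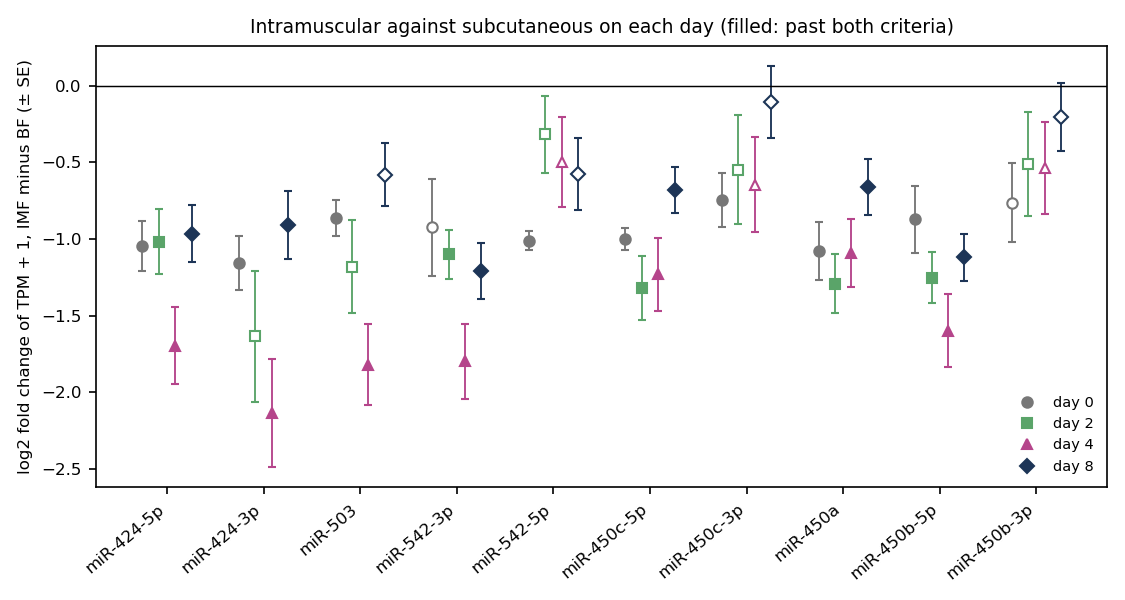
log2 fold change of TPM + 1, IMF minus BF, of each member on each day, with its SE from limma. Filled symbols passed both criteria and open symbols did not, and ssc-miR-450c-3p and ssc-miR-450b-3p are left out of the counts in the text. All 40 values lie below 0, and the values of day 4 reach the lowest point, -2.13 for ssc-miR-424-3p.

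ssc-miR-450c-5p, the most abundant strand, showed the gap in every library. In BF-0d it was at 1613, 1682 and 1642 TPM, in BF-2d at 1965, 2175 and 1261 TPM, in BF-4d at 1304, 2041 and 1219 TPM and in BF-8d at 1447, 1307 and 1306 TPM. In IMF-0d it was at 799, 877 and 794 TPM, in IMF-2d at 700, 733 and 677 TPM, in IMF-4d at 596, 665 and 632 TPM and in IMF-8d at 823, 841 and 867 TPM. The lowest BF library was above the highest IMF library whatever the day. Its log2 fold change, IMF minus BF, was -0.999 ± 0.07 (SE) before induction (limma, adjusted p = 0.000698), -1.32 ± 0.21 at day 2 (adjusted p = 0.0155), -1.23 ± 0.24 at day 4 (adjusted p = 0.00179) and -0.68 ± 0.15 at day 8 (adjusted p = 0.00224). With median-of-ratios scaling the day 8 value was -0.36 and no longer passed the fold criterion, and day 8 passed in 11 of 15 alternative fits. In the order of the group means, IMF-4d, IMF-2d and IMF-0d followed each other without overlap of their libraries, IMF-0d and IMF-8d overlapped, and BF-8d stood clear above IMF-8d. The 4 BF groups overlapped with their neighbours in that order.

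The same order without exception, all 12 BF libraries above all 12 IMF libraries, held for 5 of the 10 members, against 2.33% of the 430 entries. They were ssc-miR-450c-5p, ssc-miR-450b-5p, ssc-miR-450a, ssc-miR-503 and ssc-miR-424-3p. The margin was wide for ssc-miR-450c-5p (1219 against 877 TPM) and ssc-miR-450b-5p (835 against 688 TPM) and small for ssc-miR-503 (39.8 against 37.3 TPM) and ssc-miR-424-3p (7.95 against 7.93 TPM). Within single days, all 3 BF libraries were above all 3 IMF libraries for 8, 7, 7 and 8 of the 8 members in the order of the days, where 29.5%, 20.5%, 41.2% and 34.9% of all entries had that order.

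ssc-miR-450a, with the seed of ssc-miR-450c-5p, had BF group means of 186 to 222 TPM and IMF group means of 86.8 to 139 TPM. Its log2 fold change lay between -1.29 ± 0.19 (SE) on day 2 (limma, adjusted p = 0.0132) and -0.66 ± 0.18 on day 8 (adjusted p = 0.00997), and it passed the test on all 4 days. On day 8 it passed in 9 of 15 alternative fits. Among the others it missed the fold criterion under median-of-ratios scaling, at -0.34, without ssc-miR-21-5p, at -0.50, and without BF-8d replicate 1, at -0.52. DESeq2 gave -0.39 (adjusted p = 0.148). ssc-miR-450a made up 11.3% ± 1.08 (SD, n = 3) of the reads of the pair in BF-0d and 10.8% ± 1.62 in IMF-0d, and 14.0% ± 1.99 in BF-8d and 14.1% ± 0.928 in IMF-8d, and these shares differed between the 2 sources by less than the spread of the libraries.

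ssc-miR-450b-5p was at 863, 1103 and 835 TPM in BF-0d and at 500, 659 and 393 TPM in IMF-0d. On day 8 it was at 1494, 1355 and 1287 TPM in BF and at 596, 688 and 619 TPM in IMF. The libraries of the sources did not overlap on any day. The log2 fold change was -0.87 ± 0.22 (SE) before induction (limma, adjusted p = 0.0312), -1.25 ± 0.17 at day 2 (adjusted p = 0.0132), -1.60 ± 0.24 at day 4 (adjusted p = 0.000386) and -1.12 ± 0.15 at day 8 (adjusted p = 5.73e-05). The day 0 call was lost in 5 of the 6 fits that left out one library and was kept without IMF-0d replicate 2.

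ssc-miR-542-3p differed most in the later days. It was at 424.3, 633 and 509 TPM in BF-0d against 236, 422 and 200.1 TPM in IMF-0d, which left a gap of only a few TPM between the sources. On day 4 it was at 700.2, 1158 and 773 TPM in BF and at 228, 236 and 275 TPM in IMF, and on day 8 at 1162, 1015 and 847 TPM in BF and at 356, 519 and 438 TPM in IMF. The log2 fold change of -0.92 ± 0.32 (SE) on day 0 did not pass the test (limma, adjusted p = 0.076) but did with the replicate number as a block (adjusted p = 0.0294), while those of day 2 (-1.10 ± 0.16, adjusted p = 0.0132), day 4 (-1.80 ± 0.24, adjusted p = 0.00028) and day 8 (-1.21 ± 0.18, adjusted p = 0.000142) did.

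ssc-miR-424-5p, the member with the miR-15/16 seed, passed on all 4 days. It was at 35.3, 25.5 and 34.5 TPM in BF-0d against 14.0, 15.1 and 15.2 TPM in IMF-0d, and at 65.3, 73.5 and 50.7 TPM in BF-8d against 30.04, 31.2 and 33.4 TPM in IMF-8d. The sources did not overlap on any day, although IMF-8d reached the level of BF-0d. Its log2 fold change was -1.04 ± 0.16 (SE) before induction (limma, adjusted p = 0.00763), -1.02 ± 0.21 at day 2 (adjusted p = 0.0304), -1.70 ± 0.25 at day 4 (adjusted p = 0.000364) and -0.96 ± 0.19 at day 8 (adjusted p = 0.000919).

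The other known miRNAs with this seed number 5. Before induction 1 of the 5 passed, ssc-miR-195, which was lower in IMF with a log2 fold change of -0.64 (limma, adjusted p = 0.043). On day 2 0 passed, on day 4 ssc-miR-15b at -0.97 (adjusted p = 0.0094) and ssc-miR-16 at -0.84 (adjusted p = 0.0141), and on day 8 ssc-miR-16 at -0.78 (adjusted p = 0.00151). Under median-of-ratios scaling 0 of the 5 were lower on any of the 4 days, and 1 was higher in IMF on day 4 and 1 on day 8. ssc-miR-424-5p made up 18.7% ± 2.35 (SD, n = 3) of the reads of the 6 entries with this seed in BF-0d and 12.3% ± 1.22 in IMF-0d, a ratio that does not depend on the scale of TPM. It made up 22.5% ± 2.31 in BF-4d and 13.0% ± 0.963 in IMF-4d, and the libraries of the sources did not overlap on either day. In BF-8d it made up 17.5% to 21.7% and in IMF-8d 14.7% to 18.2%, where they did.

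ssc-miR-424-3p, the other arm, showed the widest ratio between the sources. On day 4 it was at 21.4, 29.7 and 9.33 TPM in BF and at 3.11, 2.70 and 4.54 TPM in IMF, and the BF mean was 5.84 times the IMF mean. The log2 fold change on that day was -2.13 ± 0.35 (SE) (limma, adjusted p = 0.000656). It was -1.16 ± 0.18 on day 0 (adjusted p = 0.00727) and -0.91 ± 0.22 on day 8 (adjusted p = 0.00445), while day 2 had -1.63 ± 0.43 and did not pass (adjusted p = 0.0592). BF-2d replicate 3 and BF-4d replicate 3 held the lowest values of their groups, 7.95 and 9.33 TPM.

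ssc-miR-503, the neighbour of miR-424, had its lowest values in IMF-4d. It was at 68.7, 58.7 and 58.7 TPM in BF-0d, 91.7, 83.2 and 41.5 TPM in BF-2d, 62.4, 83.7 and 64.2 TPM in BF-4d and 59.8, 62.6 and 39.8 TPM in BF-8d. It was at 37.0, 31.5 and 32.5 TPM in IMF-0d, 28.7, 27.9 and 32.3 TPM in IMF-2d, 16.2, 15.4 and 27.2 TPM in IMF-4d and 37.3, 37.0 and 31.5 TPM in IMF-8d. The BF groups overlapped with each other, whereas in IMF the day 4 libraries were below those of every other day. The log2 fold change between the sources was -0.86 ± 0.12 (SE) on day 0 (limma, adjusted p = 0.00495) and -1.82 ± 0.27 on day 4 (adjusted p = 0.000357). On day 2 (-1.18 ± 0.31, adjusted p = 0.0592) it missed the p criterion and on day 8 (-0.58 ± 0.20, adjusted p = 0.0353) the fold criterion.

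Of the rare strands, ssc-miR-542-5p was lower in IMF on day 0, at 3.16, 3.18 and 3.02 TPM in BF-0d against 1.13, 0.984 and 1.04 TPM in IMF-0d (log2 fold change -1.01 ± 0.07 SE, limma, adjusted p = 0.000698). It did not pass on days 2, 4 and 8, at -0.32, -0.50 and -0.57 (limma, adjusted p = 0.464, 0.207 and 0.0667). ssc-miR-450c-3p had log2 fold changes from -0.74 on day 0, on 3 to 27 reads per library, to -0.10 on day 8, and ssc-miR-450b-3p from -0.76 on day 0 to -0.20 on day 8; both had reached the filter only through BF. At such low levels the added 1 TPM makes the fold change understate the ratio of the means.

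The source-by-day interaction, a limma F test over all 24 libraries, draws on the same changes across days with which the members were chosen, so its values are a description here and support no difference between the courses. The adjusted p was 0.0357 for ssc-miR-503 and from 0.139 for ssc-miR-424-5p to 0.708 for ssc-miR-450b-3p for the 9 other members, while 31.6% of the 430 entries had one under 0.05. Without replicate 1 it was 0.19 for ssc-miR-503 and without replicate 2 it was 0.433.

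The endothelial markers ssc-miR-126-3p and ssc-miR-126-5p were also higher in BF. Their sum was 38.1 to 71.2 TPM in BF-0d against 18.2 to 40.4 TPM in IMF-0d, and 26.4 to 53.5 TPM in BF-2d against 24.5 to 27.4 TPM in IMF-2d. It was 53.6 to 86.4 TPM in BF-4d against 18.7 to 30.9 TPM in IMF-4d, and 51.2 to 90.9 TPM in BF-8d against 24.6 to 34.8 TPM in IMF-8d. The sum of the muscle markers was 818 to 1012 TPM in BF-0d against 909 to 1738 TPM in IMF-0d, and 1324 to 2361 TPM in BF-8d against 982 to 1631 TPM in IMF-8d. On day 2 it was lower in BF, at 475 to 544 TPM against 814 to 1065 TPM. On day 4 it was higher in BF, at 1042 to 1526 TPM against 696 to 985 TPM. The markers of red blood cells summed to 6.48 to 7.01 TPM in IMF-8d, mostly ssc-miR-486, and to at most 3.77 TPM in any library of the other groups. Those of leukocytes summed to at most 2.603 TPM. The part of such cells in the difference between BF and IMF was not tested.

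The second comparison follows the members from day 0 to day 8 within each source. The members were chosen with these changes in view, so they are described without a test. In BF, ssc-miR-424-5p, ssc-miR-542-3p and ssc-miR-450b-5p had all 3 day 8 libraries above all 3 day 0 libraries, and ssc-miR-450c-5p, ssc-miR-450c-3p and ssc-miR-450b-3p had them below. Of all 430 entries, 32.8% were above and 20.9% below in this way. In IMF, ssc-miR-424-5p and ssc-miR-542-5p were above and 0 members below, where 30.9% and 17.9% of all entries were. Without ssc-miR-21-5p, 2 members were above and 1, ssc-miR-450c-5p, was below in IMF, where 14.5% and 32.9% of the 429 other entries were. In TPM the IMF count of 2 was 6 without IMF-0d replicate 2, 4 without IMF-8d replicate 1 or replicate 3, and 3 without IMF-0d replicate 1. With a library left out every entry separates more easily, so these counts cannot be set against the shares above.

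**Figure D3:**
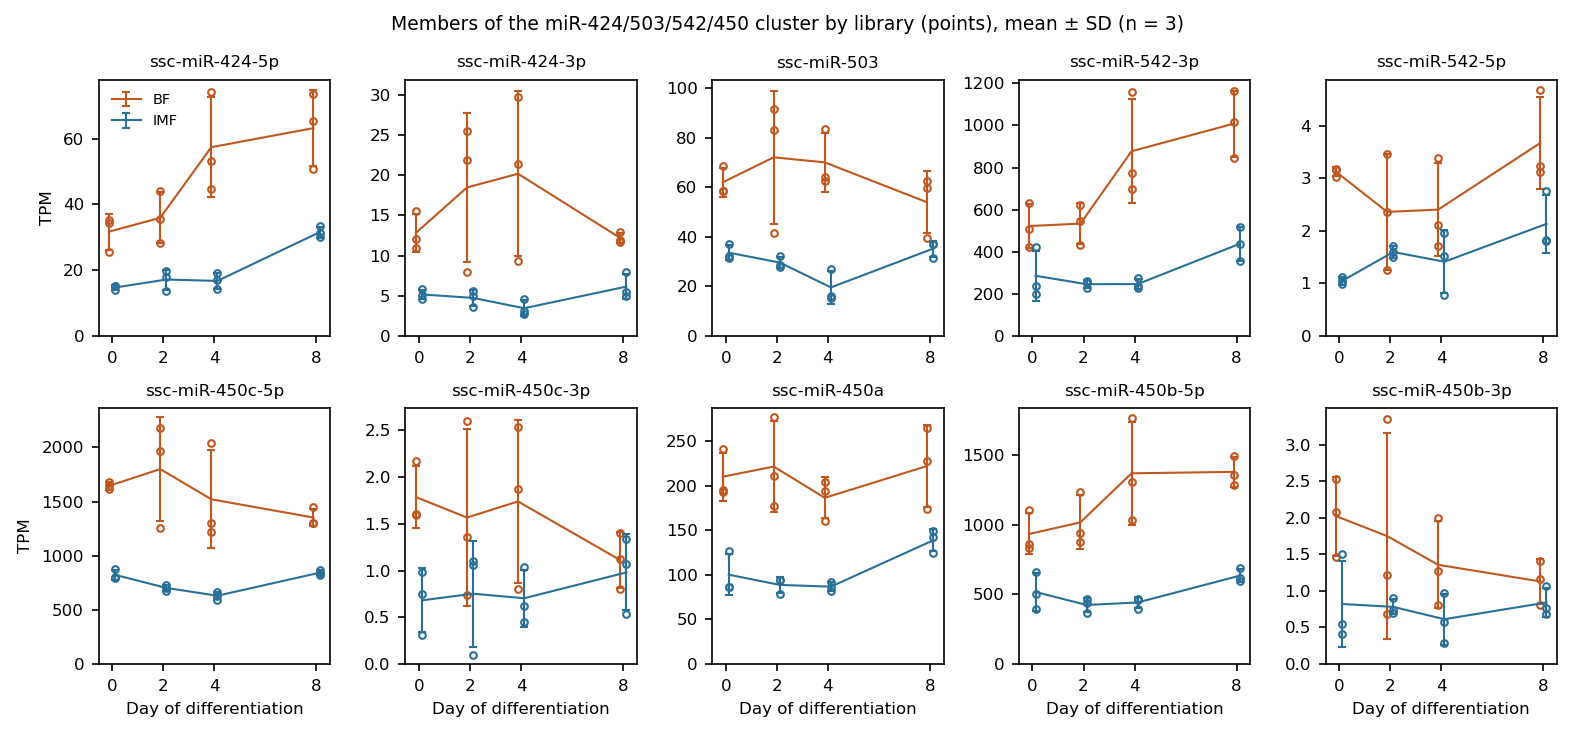
TPM of the 10 members against the day of differentiation, with each library as a point and the mean ± SD (n = 3) of each group joined by lines. The BF lines lie above the IMF lines in every panel, the BF lines of ssc-miR-424-5p and ssc-miR-542-3p climb after day 2, and most IMF lines climb after day 4.

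In BF all 3 day 4 libraries were above all 3 day 2 libraries in TPM for 2 of the 10 members. These were ssc-miR-542-3p and ssc-miR-424-5p, with ratios of 1.64 and 1.60. The median log2 ratio of TPM + 1 over all 430 entries in this step was 0.13. The share of all entries with that order is not given, so the order is not read as particular to the cluster. Without ssc-miR-21-5p the ratios were 1.503 and 1.46, and the libraries of ssc-miR-424-5p overlapped. ssc-miR-542-3p went from 522 TPM ± 105 (SD, n = 3) on day 0 and 534 TPM ± 97.1 on day 2 to 877 TPM ± 246 on day 4 and 1008 TPM ± 157 on day 8, a ratio of 1.93 between day 8 and day 0. ssc-miR-424-5p went from 31.7 TPM ± 5.44 on day 0 to 57.4 TPM ± 15.2 on day 4 and 63.2 TPM ± 11.6 on day 8, a ratio of 1.99. Counted without ssc-miR-21-5p the ratios were 1.28 and 1.31. The day 8 libraries then still lay above those of day 0 for ssc-miR-542-3p but overlapped for ssc-miR-424-5p. Between day 2 and day 4 the sum of the muscle markers in BF went from 475 to 544 TPM to 1042 to 1526 TPM and the mean sum of the endothelial markers from 40.9 to 68.7 TPM, and their part was not tested.

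ssc-miR-450c-5p went the other way in BF, from 1646 TPM ± 34.6 (SD, n = 3) on day 0 to 1353 TPM ± 81.1 on day 8, a ratio of 0.822 that became 0.746 with median-of-ratios scaling and 0.546 without ssc-miR-21-5p. ssc-miR-450b-5p, at the far end of the cluster, had a ratio of 1.48 that became 1.34 and 0.985, so that its direction depended on the scale. Without ssc-miR-21-5p, 1 member was above and 6 were below on day 8, where 17% and 38.9% of the 429 other entries were.

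In IMF the later rise came between day 4 and day 8. The day 8 libraries were all above those of day 4 for 7 of the 10 members, where 30.5% of all entries had that order: the 7 members with a mean of at least 10 TPM. The ratios of the means ran from 1.34 for ssc-miR-450c-5p to 1.88 for ssc-miR-424-5p. Counted without ssc-miR-21-5p, the order held for 4, namely ssc-miR-424-5p, ssc-miR-450a, ssc-miR-450b-5p and ssc-miR-542-3p, and for 12.8% of the 429 other entries. The sum of the red blood cell markers went from 0.284 to 0.772 TPM in IMF-4d to 6.48 to 7.01 TPM in IMF-8d in the same step. Most of the IMF-8d sum was ssc-miR-486, as ssc-miR-144 and ssc-miR-451 never passed 0.119 and 2.24 TPM. The part of these markers was not tested. Over the whole course ssc-miR-450c-5p had 823 TPM ± 46.3 (SD, n = 3) in IMF-0d, 703 TPM ± 28.0 in IMF-2d, 631 TPM ± 34.6 in IMF-4d and 844 TPM ± 22.4 in IMF-8d. Its ratio of day 8 to day 0 was 1.02 in TPM, 0.989 with median-of-ratios scaling and 0.758 without ssc-miR-21-5p, so its direction depended on the scale.

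Ratios between members of one library do not depend on ssc-miR-21-5p or on depth. They were taken against ssc-miR-450c-5p, as reads per 1000 of its reads. In BF, ssc-miR-542-3p went from 316 ± 57.1 (SD, n = 3) on day 0 to 743 ± 82.5 on day 8, ssc-miR-450b-5p from 566 ± 78.4 to 1019 ± 28.7, and ssc-miR-424-5p from 19.3 ± 3.66 to 46.7 ± 8.85. In IMF, ssc-miR-542-3p had 343 ± 122 on day 0 and 518 ± 92.6 on day 8, ssc-miR-450b-5p had 624 ± 129 and 752 ± 57.3, and ssc-miR-424-5p had 17.9 ± 1.02 and 37.4 ± 0.998. The day 8 libraries lay clear of the day 0 libraries for all 3 members in BF, and in IMF for ssc-miR-424-5p only among these 3. Of the other members, ssc-miR-450a lay clear in IMF (108.8 to 144.7 on day 0, 152 to 177.2 on day 8) and overlapped in BF. The rare ssc-miR-542-5p lay clear in both sources, on 9 to 51 reads per library.

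On day 0 these ratios overlapped between BF and IMF for ssc-miR-424-5p, ssc-miR-503, ssc-miR-542-3p, ssc-miR-450a and ssc-miR-450b-5p. The levels of these 5 and of ssc-miR-450c-5p were then 1.80 to 2.15 times as high in BF. The other strands included some that were apart: ssc-miR-424-3p had 6.65 to 9.22 reads per 1000 in BF-0d and 5.75 to 6.61 in IMF-0d, and ssc-miR-542-5p had 1.84 to 1.96 and 1.12 to 1.41. ssc-miR-503 stayed between 31.1 and 47.2 reads per 1000 in the 8 group means, and ssc-miR-450a had 127 ± 13.9 and 163 ± 26.6 in BF and 121 ± 20.6 and 164 ± 12.6 in IMF on days 0 and 8. As shares of the cluster, ssc-miR-450c-5p held 44.7% to 50.1% in BF-0d and 32.1% to 35.1% in BF-8d, and 41.0% to 52.0% in IMF-0d and 37.0% to 41.6% in IMF-8d.

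**Figure D4:**
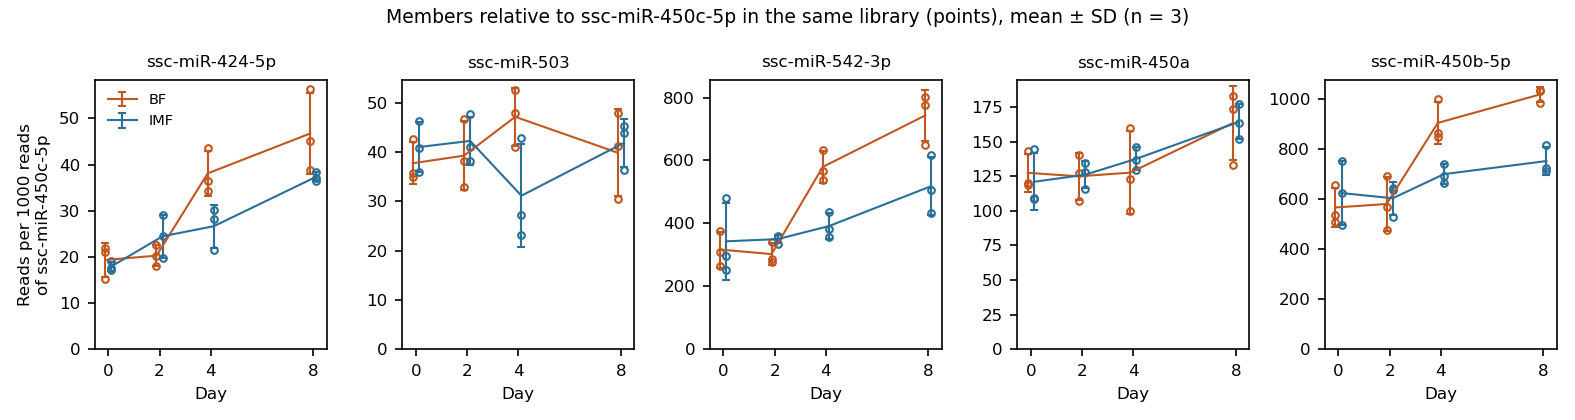
Reads of 5 members per 1000 reads of ssc-miR-450c-5p in the same library, against the day, with libraries as points and the mean ± SD (n = 3) as lines. BF and IMF overlap on day 0 for the 5 members plotted. By day 8 ssc-miR-424-5p, ssc-miR-542-3p and ssc-miR-450b-5p have climbed in BF, and ssc-miR-503 has not.

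The third comparison is between the arms of each precursor, again as a description. mir-542, mir-450c and mir-450b each had one dominant arm. The 3p arm of mir-542 had 154 to 402 times the reads of its 5p arm in the group means. The 5p arm had 499.6 to 1290 times the 3p reads for mir-450b, and 942 to 1502 times for mir-450c outside IMF-2d. In IMF-2d the mir-450c ratio was 637, 7289 and 639, the second on 1 read of the 3p arm. The minor arms had 1 to 51 reads per library, so these ratios are uncertain to the extent of their counting error. In no library did the dominant arm of these 3 precursors change.

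mir-424 gave both arms in amounts of the same order, and their balance moved. The 5p arm had 2.93, 1.64 and 3.16 times the 3p reads in BF-0d and 5.05, 6.16 and 4.33 times in BF-8d. The ratio was 3.04, 2.604 and 2.98 in IMF-0d, 3.83, 3.196 and 3.96 in IMF-2d, 5.43, 5.26 and 4.21 in IMF-4d and 3.79, 5.70 and 6.68 in IMF-8d. In both sources the day 8 libraries were above those of day 0. In BF-2d and BF-4d the libraries were divided, as replicate 3 had 3.57 and 5.69 while the others had 1.62 to 2.50. The 3p arm held 24.1% to 37.9% of the reads of both arms in BF-0d and 14.0% to 18.8% in BF-8d. These ratios rest on 35 to 334 reads of the 3p arm per library and do not depend on the scale of TPM.

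**Figure D5:**
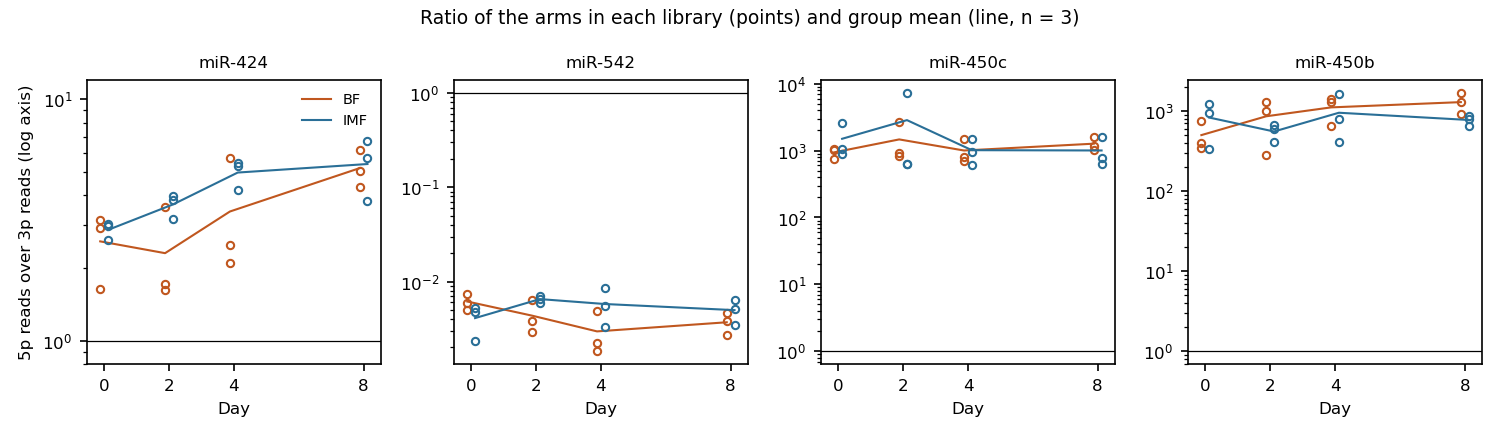
Reads of the 5p arm over reads of the 3p arm on a log axis, against the day, for the 4 precursors with both arms listed. Points are libraries, lines join group means (n = 3), and the horizontal line marks equal arms. miR-424 lies between 1.62 and 6.68 and climbs in both sources, while the others stay far from 1.

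Among the known miRNAs outside the cluster, those whose levels were most like the mean log2(TPM + 1) of the 7 abundant members over the 24 libraries were ssc-miR-378 (Pearson r = 0.907), ssc-miR-30d (0.876), ssc-miR-10a-5p (0.868), and ssc-miR-9 and ssc-miR-9-1 (both 0.860), out of 260 candidates. The last pair has the same values in every library. The 24 libraries fall into 2 sources, and within them the likeness was lower: r was 0.177 over the 12 BF and 0.618 over the 12 IMF libraries for ssc-miR-378, and 0.605 and 0.618 for ssc-miR-30d. It was 0.420 and -0.048 for ssc-miR-10a-5p, and 0.475 and 0.810 for ssc-miR-9 and ssc-miR-9-1. All these values share the library totals, and no test was made.

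Of the known miRNAs that the study's list places on chromosome X outside the cluster, 28 were tested. Whether their sequences also have copies elsewhere in the genome was not checked. In IMF, 4 of them were lower and 2 higher before induction, 4 and 0 at day 2, 10 and 0 at day 4, and 8 and 2 at day 8, with median log2 fold changes of -0.24, -0.24, -0.54 and -0.07. Under median-of-ratios scaling these counts were 0 and 3, 3 and 0, 8 and 0, and 6 and 6, whereas 0 members of the cluster were higher on any of the 4 days. ssc-miR-222 (log2 fold change -2.14, limma, adjusted p = 0.00028) and ssc-miR-452 (-1.97, adjusted p = 0.00162), both on day 4, were the farthest below 0 among the 28. ssc-miR-222 had 1898 TPM ± 771 (SD, n = 3) in BF-4d and 405 TPM ± 53.9 in IMF-4d. The farthest above 0 were ssc-miR-224 and ssc-miR-452 on day 0, with 3.39 TPM ± 0.786 (SD, n = 3) and 2.02 TPM ± 0.278 in IMF-0d and mean levels below that of 3 reads in BF-0d.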

How the data were processed

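The authors kept small RNA reads that matched Sscrofa11.1 without mismatch in Bowtie, removed reads of other small RNA classes, identified known miRNAs by BLAST against miRBase and predicted new ones with miRDeep2. The deposited values, named TPM, are RPM: reads per 1000000 reads counted on miRNAs, summing to 1000000 over 1587 entries. All 38088 values came out as whole reads within 0.000569 of a read, and these whole reads were used for edgeR 4.0.16 and DESeq2 1.42.0 as alternatives. The median library held 10614384.5 reads. No molecular identifiers are named, so depths cover counting error only. BF and IMF were compared on each day with limma 3.58.1 (eBayes with trend, R 4.3.3) on log2(TPM + 1) for the 430 entries whose mean over 24 libraries reached 1 TPM. A fit with the replicate number as a block was an alternative, as it is not known whether the numbers are pairs. The fits were also run on simulated data, and no result here rests on that. The members, lists and tests were chosen with earlier results of these data known. Named are the 10 members, ssc-miR-21-5p, markers of other cell types, miRNAs with the seed of ssc-miR-424-5p, the 2 largest differences each way among other miRNAs of chromosome X, and the 5 known miRNAs most like the members. Changes between days within a source and between arms had no test, and the source-by-day interaction is given as a description. Sequences and positions came from the study's list of miRNAs and were compared with the RefSeq genome and annotation of the same build. No 2 libraries of a group agreed within sampling noise (lowest chi-square per degree of freedom 50.4). Python 3.11.15, NumPy 2.4.6, pandas 2.3.3 and Matplotlib 3.10.9 were used. mRNA libraries were not analysed here.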

Additional observations from a re-analysis of the deposited data

Results flagged for a closer look

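ssc-miR-503 stood out for an adjusted p of 0.0357 in the source-by-day interaction (limma F test over 24 libraries). The members were chosen with changes across days known, so this value is a description and does not show that the courses differ. Its group means were 62.0, 72.1, 70.1 and 54.0 TPM in BF and 33.7, 29.6, 19.6 and 35.3 TPM in IMF on days 0, 2, 4 and 8. In IMF, 2 of the 3 day 4 libraries were at 16.2 and 15.4 TPM and the other at 27.2 TPM. Relative to ssc-miR-450c-5p of the same library, ssc-miR-503 had 47.2 ± 5.87 (SD, n = 3) reads per 1000 in BF-4d and 31.1 ± 10.4 in IMF-4d, and these libraries overlapped. Over its alternatives the adjusted p of the interaction ran from 0.00528 to 0.433, and it was under 0.05 in 7 of 11.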

How the results depend on the processing

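Deviations from the group means correlated from -0.329 to 0.509 between the same numbers of BF and IMF, above 0.1 in 6 of 12 pairs: all 3 of day 0 (0.188, 0.509 and 0.205) but not all 3 of any other day. However, BF-0d replicate 1 correlated more with IMF-0d replicate 3 (0.386) than with IMF-0d replicate 1. Whether the numbers are pairs is therefore not settled on any day, and no source links them to piglets. The main tests were unpaired, and the block is an alternative only. Of the 8 members that are counted, 7, 5, 7 and 6 were called on days 0, 2, 4 and 8. Of all 430 entries 126, 53, 156 and 160 were called. With the replicate block these were 8, 3, 7 and 6 members, and 127, 9, 161 and 162 entries. That fit lost ssc-miR-424-5p (limma, adjusted p = 0.08765) and ssc-miR-450c-5p (adjusted p = 0.053) on day 2, and the interaction kept 1. With no filter on low values the day 2 count was 0, where 2 of all 1587 entries were called. Leaving out one library gave 0 to 7 members on day 2, and 2 to 85 of all entries. It gave 6 to 8 members on day 0 (86 to 105 entries), 7 on day 4 (123 to 171) and 6 to 7 on day 8 (143 to 194). The interaction count of 1 became 0 with no filter and with edgeR, and leaving out a replicate gave 0 to 2. Members whose libraries did not overlap between day 0 and day 8 numbered 6 to 7 in BF and 2 to 6 in IMF when one library was left out. Every entry separates more easily with fewer libraries, and the shares over all entries are not given for these fits. The log2 fold change of ssc-miR-450c-3p on day 8, -0.10, became 0.0503 with median-of-ratios scaling, 0.0802 with edgeR and 0.0479 with DESeq2, and ran from -0.235 to 0.0668 when one library was left out, above 0 without IMF-8d replicate 3. It was not called under any of them. Of the 588 alternative values of single members between BF and IMF, 502 kept direction and side of the threshold, 56 lost and 26 gained the call. The filter of at least 10 TPM left out the 3 rare strands. The causes of these changes were not tested. Precision is limited by the 3 libraries per group and, for the rare strands, by 1 to 51 reads.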
